A study of Mus musculus with 12 samples.

Results

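Voltage-gated calcium channels, voltage-gated sodium channels and the HCN channels of the mouse hippocampus were followed here as a group of 36 genes. They are every gene with a probe on the array whose annotated symbol starts with Cacna, Cacnb or Cacng, or with Hcn or Scn and a digit; the splicing factor gene Scnm1 and the epithelial channel genes of the Scnn series were left out. The rule used names and no measured value. It gave 84 of 45135 probes and 36 of 19031 named genes, in 7 families: 9 Cacna1 genes (29 probes), 3 Cacna2d genes (5 probes), 3 Cacnb genes (10 probes), 8 Cacng genes (11 probes), 3 Hcn genes (5 probes), 7 Scn genes of pore-forming subunits (15 probes) and 3 Scn genes of beta subunits (9 probes). Channel genes of these kinds without a named probe were not analysed here.

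The animals were C57Bl/6N mice that had all received tamoxifen at 2 months of age and were killed 4 weeks later, and total RNA came from vibratome sections of the hippocampus. The 6 mutants (TIF-IA CaMKCreERT2) carried 2 floxed alleles of TIF-IA, the gene Rrn3 of a factor that RNA polymerase I needs to start rRNA synthesis, and a tamoxifen-inducible Cre. This Cre is driven by the Camk2a promoter, so that only cells using that promoter, mainly excitatory neurons, lose the gene while glia, vessels and most interneurons in the same sections keep it. The 5 controls were littermates with the floxed allele and no Cre in the methods, while the labels call them wildtype; each mutant and control is 1 animal, and mutant 6 was hybridised to 2 arrays, which were averaged.

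The pore of a voltage-gated calcium or sodium channel is a single large alpha subunit, encoded by a Cacna1 gene or by one of the larger Scn genes, and it opens when the membrane is depolarised. Smaller subunits join it: α2δ proteins (Cacna2d) and beta subunits (Cacnb) bring calcium channels to the membrane, beta subunits of sodium channels (the Scn genes ending in b) set their gating and anchor them, and most of the Cacng proteins serve AMPA receptors as well, as TARPs. HCN channels open on hyperpolarisation, pass a depolarising current and are strong in the dendrites of pyramidal cells, while sodium channels are packed into the axon initial segment, where the action potential starts.

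Signals are log2 values after background correction and quantile normalization, in which a probe without signal lies slightly above 4. Of the 84 probes, 60 were above background (a detection p-value under 0.01 in at least 1 animal), 52 of them in both genotypes and 8 in one, 36 were detected in every animal, and 24 in none. The brightest probe was above background for 29 genes. It was not for the T-type channel gene Cacna1i, for Cacna2d4, for the skeletal muscle subunit gene Cacng1 and its relative Cacng6, for Hcn4, the HCN channel of the cardiac pacemaker, for the sensory neuron sodium channel gene Scn10a and for Scn7a, which encodes a sodium sensor; for these 7 genes no fold is given. Rrn3 was measured as a check of the labels: the mutants ran from 7.71 over a median of 7.85 to 7.99, and the controls gave 8.37, 8.39, 8.25, 8.35 and 8.55, so that every mutant lay below every control (log2 fold change -0.55, standard error 0.07, exact two-sided permutation p = 0.00433, the smallest that 6 against 5 animals allow; limma adjusted p = 0.152). Its dimmer probe was not well above background in any animal.

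Across the 36 genes the mutants and controls differed little. None of the 84 probes reached an adjusted p under 0.05 in limma (0 of 84, against 1 of all 45135 probes, 0.00222%), and the lowest adjusted p of any channel probe was 0.996. None reached an unadjusted p under 0.001 (0 of 84, against 0.0842%), and on none did the 2 genotypes fail to overlap (0 of 84, against 0.332%). At an unadjusted p under 0.05, 6 of 84 probes (7.14%) were counted against 3.95% of all probes. All 6 were among the 60 channel probes above background, and of all named probes above background 5.26% were counted. Of these 6, 1 was higher in the mutants (background 1.94%) and 5 were lower (background 2.01%). The 5 lower probes belong to 3 genes, and 3 of them to Scn3b. With 1 probe per gene, the brightest, only Hcn3 was counted (1 of 36, 2.78%, against 4.54% of all named genes), so that the share over genes was not above the background. The median log2 fold change over the brightest probes was -0.01 for the 36 channel genes and 0.01 for all named genes. Over the 29 channel genes above background it was -0.06, with 10 genes positive and 19 negative. Over all named genes above background it was 0.01, with 7642 positive and 6810 negative.

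**Figure D1:**
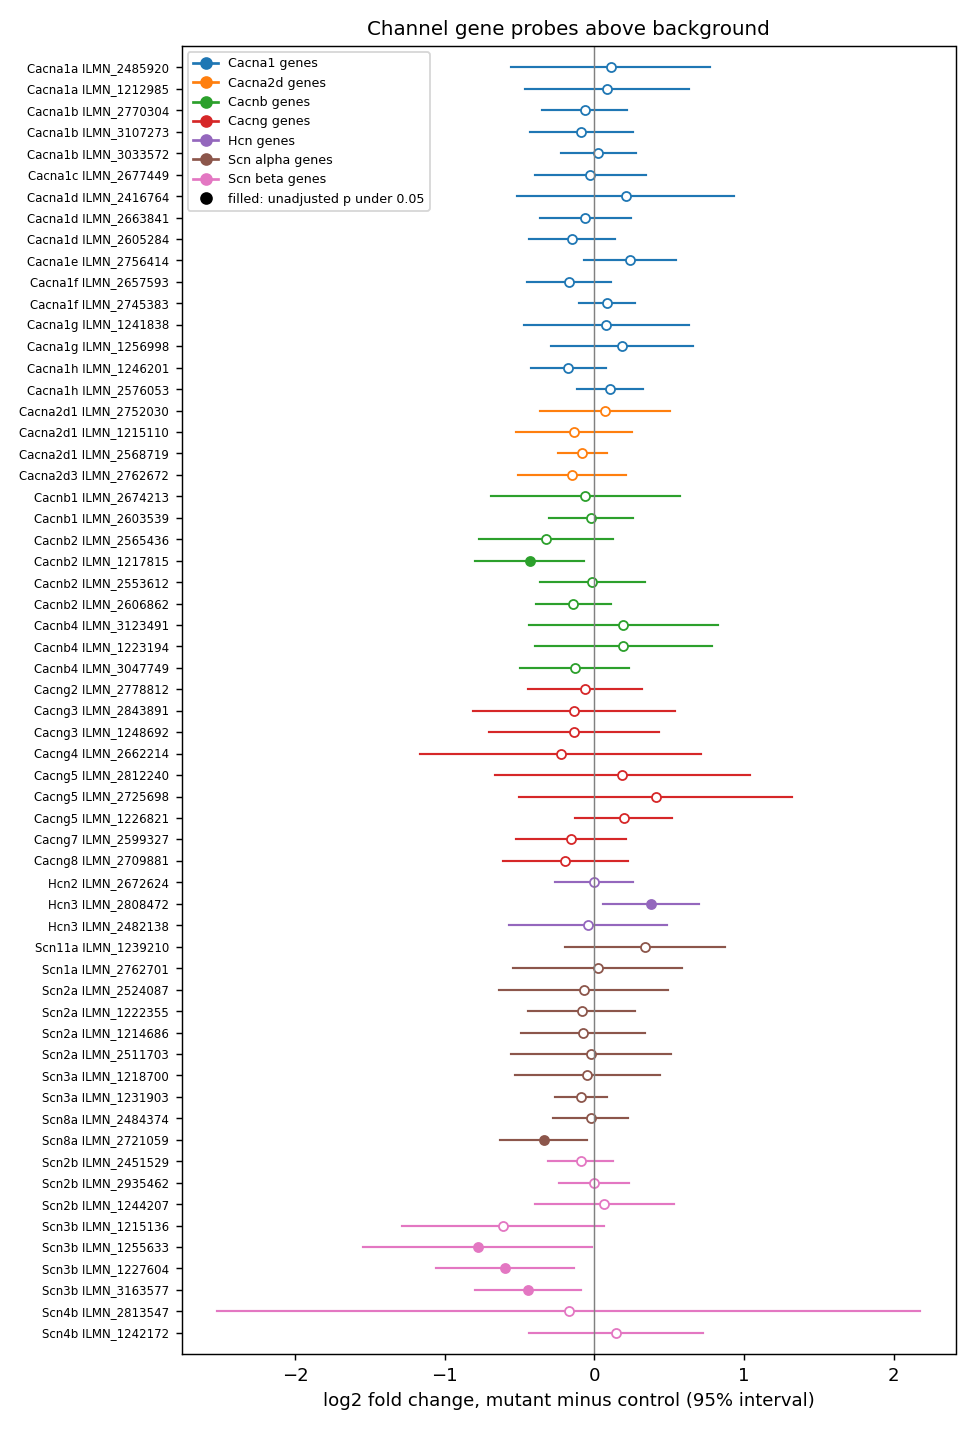
Log2 fold change (mutant minus control, horizontal axis) with its 95% interval for each of the 60 channel probes above background, coloured by family; filled points have an unadjusted limma p under 0.05. The 4 Scn3b probes lie farthest to the left, from -0.44 to -0.78, and the interval of Scn4b ILMN_2813547 is the widest, from -2.52 to 2.18.

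Scn3b was the gene with the most probes counted. It encodes a beta subunit that binds the sodium channel pore without a disulfide bond and is strong in hippocampal neurons. The array carries 4 named probes for it, all above background, and all 4 were lower in the mutants. On the brightest, ILMN_1215136, the mutants ran from 7.30 over a median of 8.39 to 8.91, and the controls gave 9.39, 9.30, 8.90, 8.21 and 8.33. The 2 highest values were both of controls and the 2 lowest, 7.30 and 7.79, both of mutants (4 and 6), with overlap between. The means were 8.22 ± 0.57 (SD, n = 6 mutants) and 8.83 ± 0.54 (SD, n = 5 controls), and the log2 fold change of -0.61 (standard error 0.31, 95% interval -1.29 to 0.06) did not pass in limma (unadjusted p = 0.0713).

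The dimmer Scn3b probes had the smaller p-values. On ILMN_1227604 the mutants ran from 5.04 over a median of 5.68 to 5.83, against 6.82, 6.32, 6.23, 5.58 and 6.00 in the controls. All mutants lay below controls 1, 2, 3 and 5, and control 4 was among the mutants. The log2 fold change was -0.60 (standard error 0.21), or 0.662 times the control level (unadjusted p = 0.0156 and adjusted p = 0.996 in limma; exact two-sided permutation p = 0.0260). On ILMN_3163577 the mutants ran from 5.10 over 5.77 to 5.89 and the controls gave 5.92, 6.35, 6.36, 5.78 and 6.03, a log2 fold change of -0.44 (standard error 0.16, unadjusted limma p = 0.0190, exact permutation p = 0.0303). Again only control 4 fell within the range of the mutants. On ILMN_1255633 the mutants ran from 4.55 over 6.15 to 6.80, against 6.90, 6.62, 7.45, 6.73 and 6.33, a log2 fold change of -0.78 (standard error 0.35, unadjusted limma p = 0.0469, exact permutation p = 0.0346). Mutant 1, which was not the lowest on any other Scn3b probe, lay far below the rest there.

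**Figure D2:**
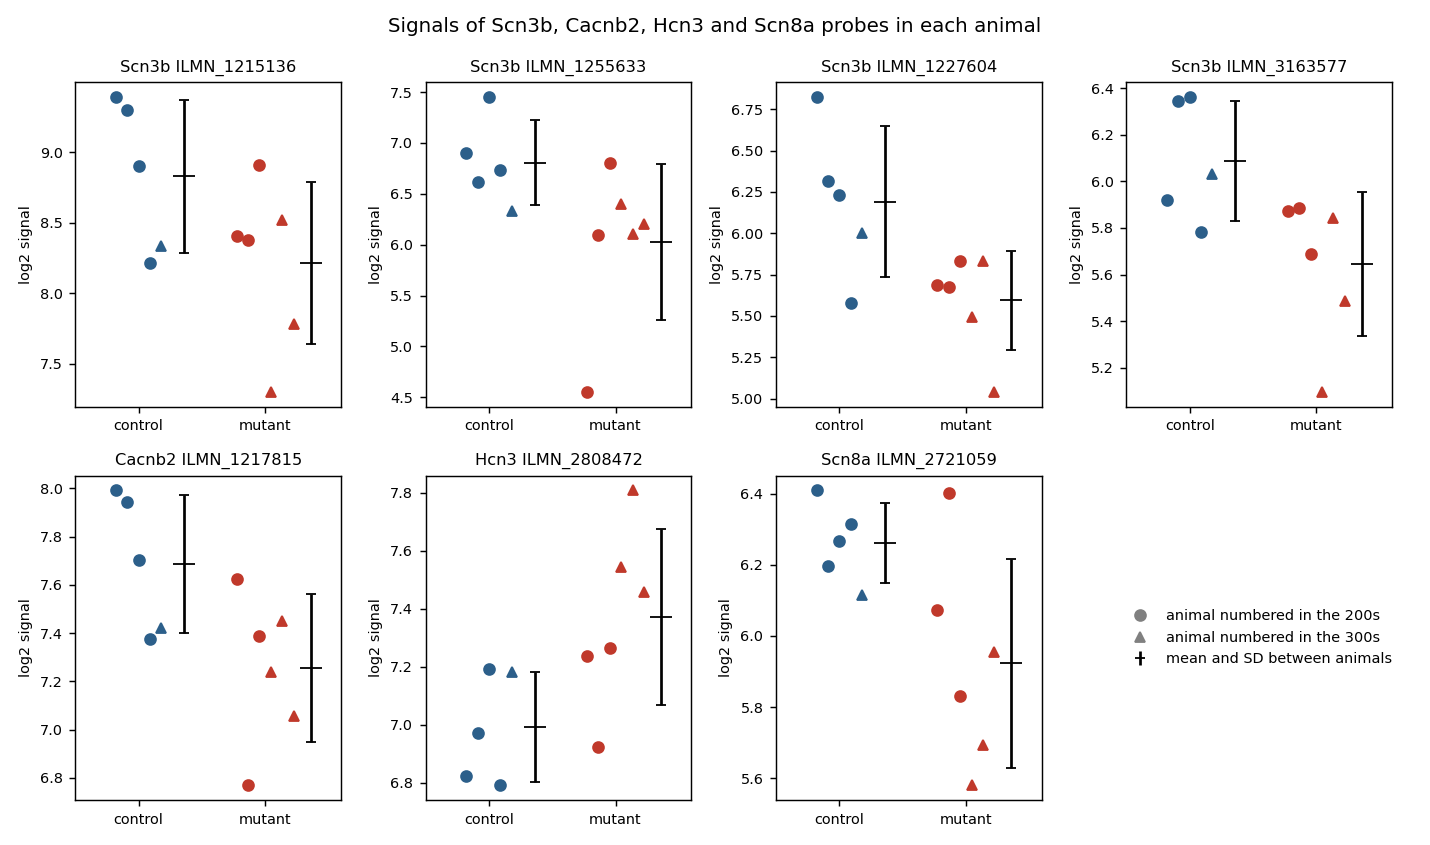
Log2 signal (vertical axes) of the 4 Scn3b probes and of the counted probes of Cacnb2, Hcn3 and Scn8a in each animal, controls in blue and mutants in red, with circles for animals numbered in the 200s, triangles for those in the 300s and bars for the mean and SD. All controls but control 4 lie above all mutants on Scn3b ILMN_1227604, and the genotypes overlap on every probe.

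The 4 Scn3b probes read 1 gene in the same RNA and are not 4 independent measurements. Animals carry numbers in the 200s (3 mutants, 4 controls) or the 300s (3 mutants, 1 control), and what the series stand for is not given in the sources used here. Within the 200s the 4 log2 fold changes were -0.39, -1.11, -0.50 and -0.29, and within the 300s -0.47, -0.10, -0.55 and -0.56, in the order ILMN_1215136, ILMN_1255633, ILMN_1227604 and ILMN_3163577. All kept their sign in both series, although the 300s rest on a single control. The size of the Scn3b difference depended on the background correction: without it, and on the deposited log2 values, ILMN_1227604 gave -0.27 in both, ILMN_3163577 -0.19 and -0.20, and ILMN_1255633 -0.38 in both, all still counted. With a block for the series of animal numbers ILMN_1227604 (-0.52) and ILMN_3163577 (-0.37) stayed counted and ILMN_1255633 (-0.80) did not. Over all 10 alternatives other than leaving out 1 animal, ILMN_1227604 and ILMN_3163577 stayed counted in 10 and ILMN_1255633 in 6. Leaving out each animal in turn, ILMN_1227604 kept an unadjusted p under 0.05 in 11 of 11 fits, ILMN_3163577 in 9 and ILMN_1255633 in 4. The call was lost for ILMN_3163577 without control 2 (-0.38) or control 3 (-0.37), and for ILMN_1255633 without mutants 2, 5 or 6 or controls 1, 2, 3 or 4 (-0.62 to -0.83). Without mutant 1, ILMN_1255633 gave -0.49 and was still counted.

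Markers of hippocampal cell fields also had negative median differences. Of the 6 general neuron markers 3 were positive and 3 negative (median -0.02). The 3 negative ones lay near background: Snap25 was detected in 0 animals, Tubb3 in 2 mutants and 1 control and Nefl in 1 control. The positive ones, Syt1, Rbfox3 and Map2, gave 0.02, 0.01 and 0.00. The mean signal of the 5 neuron markers above background was 9.50 to 9.72 in the mutants and 9.54 to 9.75 in the controls. Of 7 dentate gyrus granule cell markers with a named probe, 7 were negative (median log2 fold change -0.44). The mean signal of the 6 above background was 6.65 to 8.09 in the mutants and 7.51 to 8.72 in the controls. Among the 7 only Lct, at -1.12, had an unadjusted limma p under 0.05 (1 of 7, against 4.54% of all named genes), and Tdo2 was not above background. Lct gave -0.28 (standard error 0.33) within the 200s and -2.39 within the 300s. Of 5 CA1 markers 4 were negative (median -0.35, range of the mean 9.04 to 10.38 in mutants and 9.59 to 10.50 in controls), and of 6 CA3 and CA2 markers 5 (median -0.30, 8.07 to 9.59 and 8.45 to 9.45). Of all named genes above background 6810 were negative and 7642 positive. Within the 200s Grik4, Bok, Cpne4 and Rgs14 gave 0.34, 0.27, 0.18 and 0.12. Iyd and Amigo2 gave -0.08 and -0.44. Within the 300s, with 1 control, these 6 gave -1.36, -0.78, -0.58, -1.17, -1.70 and -0.98 in that order. C1ql2 gave 0.18 and -2.03 in the 2 series, while the other dentate gyrus markers were negative in both. The CA1 marker Wfs1 gave -0.38 and 1.07. Mutants 4 and 6, which had the lowest Scn3b ILMN_1215136 signals, also had the lowest dentate gyrus means of all animals, 7.07 and 6.65. Their CA3 and CA2 means, 8.14 and 8.07, were the lowest as well. For CA1 mutant 4 was the lowest (9.04), but control 4 (9.59) lay just below mutant 6 (9.60). The same mutants were lowest on Scn3b ILMN_1227604 and ILMN_3163577, but not on ILMN_1255633, where they gave 6.40 and 6.20. Lists of other cell types had median log2 fold changes of 0.24 for oligodendrocytes, 0.20 for interneurons and 0.07 for endothelial and mural cells. For oligodendrocyte precursors, astrocytes and microglia the medians were -0.06, -0.09 and -0.10. The part of the cell fields and of other cell types in the Scn3b values was not tested. In RNA of whole sections fewer cells of a type and less RNA per cell cannot be told apart.

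The other genes of sodium channel beta subunits gave differences near 0 or of no fixed sign. Scn2b, whose product is tied to the pore by a disulfide bond, was among the steadiest members: on ILMN_2451529 the mean was 11.64 ± 0.09 for the mutants (SD, n = 6) and 11.73 ± 0.23 for the controls (SD, n = 5), a log2 fold change of -0.09 (95% interval -0.31 to 0.13). Its other 2 probes gave -0.00 and 0.07.

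Scn4b, known for its high level in the striatum, spread on its brightest probe over the widest range of all the channel genes, and not by genotype. On that probe, ILMN_2813547, the mutants ran from 7.79 over a median of 8.84 to 11.19, and the controls gave 8.30, 7.60, 11.83, 12.31 and 7.12. High in both genotypes were 4 animals, mutants 2 (10.92) and 4 (11.19) and controls 3 and 4. The log2 fold change of -0.17 had a standard error of 1.07, and within the 200s and the 300s it was -1.11 and 2.50, so that its sign followed which animals were compared. The same 4 animals had the highest means of 4 striatum markers, all above background. These were 9.99 and 10.73 in mutants 2 and 4 and 11.07 and 11.58 in controls 3 and 4, against 7.31 to 9.24 elsewhere. The 4 animals also had the highest means of the 8 thalamus markers above background. In the same order those means were 8.25, 8.08, 7.62 and 8.84, against 6.12 to 6.43 elsewhere. The thalamus marker Plekhg1 was not above background and was left out of the mean. The dimmer Scn4b probe above background, ILMN_1242172, did not single out these animals: the mutants ran from 4.93 over 5.27 to 5.83 and the controls gave 5.40, 4.23, 5.07, 5.56 and 5.76, a log2 fold change of 0.15 (standard error 0.26). Its highest animals were mutant 5 and control 5. The part of neighbouring tissue in the Scn4b values was not tested.

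Of the sodium channel pore genes of the brain, Scn1a, Scn2a and Scn3a had no probe counted. Scn2a, the main channel of excitatory axons early in life and still strong in adult hippocampus, had 4 of 5 probes above background with log2 fold changes from -0.09 to -0.02, and on ILMN_2524087 the means were 9.13 ± 0.49 (SD, n = 6 mutants) and 9.20 ± 0.43 (SD, n = 5 controls; 95% interval of the difference -0.64 to 0.49). Scn1a, the sodium channel of fast-spiking interneurons among other cells, gave 0.02 (95% interval -0.55 to 0.59). Scn3a, which is strongest before birth, gave -0.05 on its brightest probe (95% interval -0.53 to 0.44). A dimmer Scn3a probe was detected in 1 mutant and 0 controls and is given no fold.

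Scn8a, which encodes the main sodium channel of the mature axon initial segment, had 2 probes that differed from each other. On ILMN_2721059 the mutants ran from 5.58 over a median of 5.89 to 6.40 and the controls gave 6.41, 6.20, 6.27, 6.31 and 6.12. The controls lay close together, and 5 of 6 mutants lay under all of them while mutant 2 lay within 0.02 of their highest. The log2 fold change was -0.34 (standard error 0.13, unadjusted p = 0.0264 and adjusted p = 0.996 in limma; exact permutation p = 0.0433). Leaving out mutants 4 or 5 or controls 1 or 4 ended the call (-0.27 to -0.32), as did a block for the series of animal numbers (-0.25). Over all 10 alternatives other than leaving out 1 animal, the call was kept in 8. Without background correction and on the deposited log2 values the difference was -0.15 in both and still counted. The brighter probe, ILMN_2484374, gave 6.62 ± 0.23 (SD, n = 6) and 6.64 ± 0.14 (SD, n = 5), a log2 fold change of -0.02 (95% interval -0.28 to 0.23). Which transcripts each probe reads is not given in the sources used here.

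Scn11a, a sodium channel of sensory neurons, was detected in 3 of 6 mutants and in 0 of 5 controls. The fitted log2 fold change of 0.34 (standard error 0.24, 95% interval -0.20 to 0.87, unadjusted limma p = 0.195, exact permutation p = 0.242) did not pass. Since the controls were not well above background, only a bound was counted, at least 1.16-fold higher in mutants. It does not establish an increase. Here that bound sets the mean of the mutants against, on each control array, the higher of the probe's own signal and the lowest detected signal. The highest mutant was number 4.

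HCN channels were represented by 2 genes above background. Hcn2, a channel of thalamus and hippocampus that sets resting potential and rhythmic firing, gave the same mean in both genotypes, 10.70 ± 0.21 for the mutants (SD, n = 6) and 10.70 ± 0.20 for the controls (SD, n = 5) (log2 fold change -0.00, 95% interval -0.26 to 0.26). Hcn3, a relative that responds little to cyclic AMP, was the only channel gene counted as higher. On ILMN_2808472 the mutants ran from 6.92 over a median of 7.36 to 7.81, and the controls gave 6.82, 6.97, 7.19, 6.79 and 7.18. Mutant 2 lay among the controls, and the other 5 mutants above all of them. The log2 fold change was 0.38 (standard error 0.15, or 1.30 times the control level, unadjusted p = 0.0247 and adjusted p = 0.996 in limma; exact permutation p = 0.0303). It was 0.20 (standard error 0.13) within the 200s and 0.42 (standard error 0.18) within the 300s, and without mutant 4, control 1 or control 4 it was not counted (0.33 to 0.35), while on uncorrected and on deposited log2 values it was 0.25 and counted. Of its other 2 probes, ILMN_2482138 gave -0.04 and was detected in 2 mutants and 1 control, and ILMN_1221517 was detected in no animal.

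**Figure D3:**
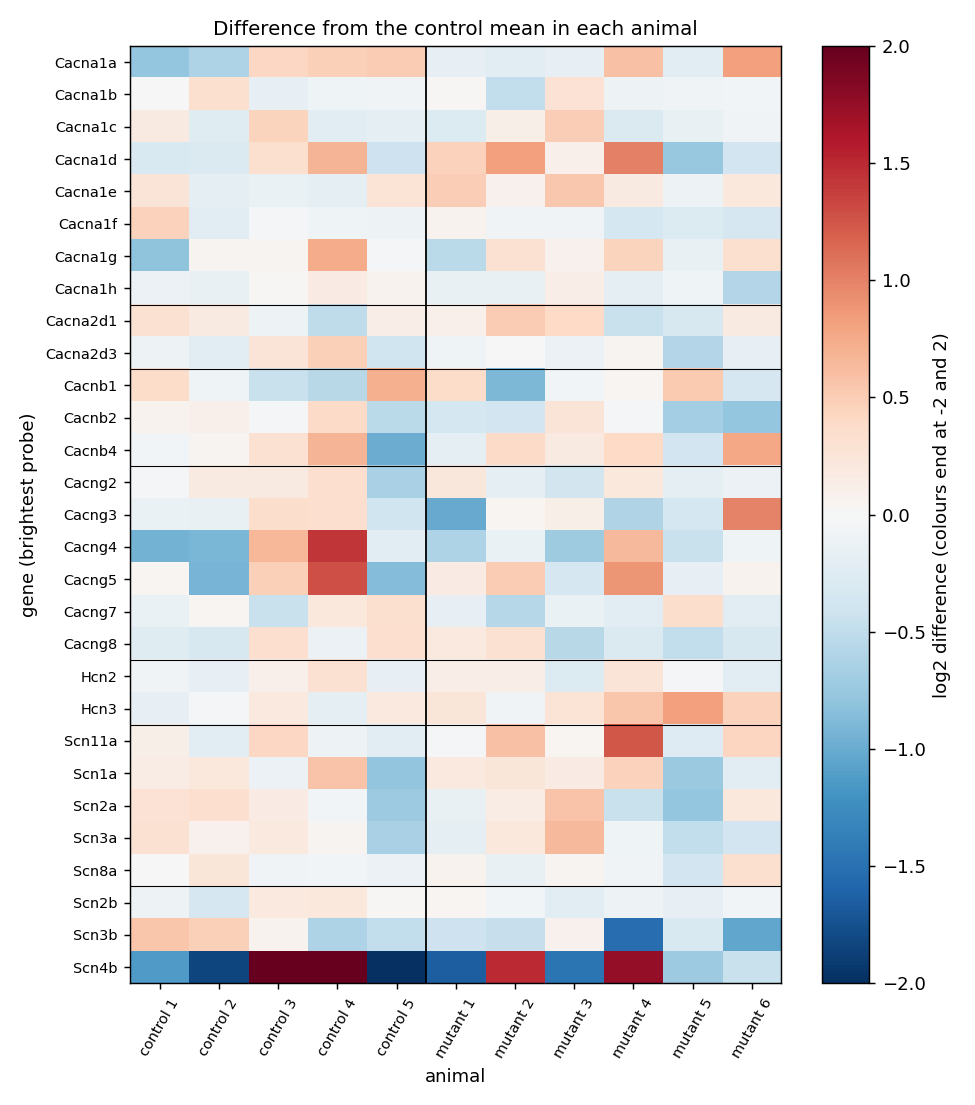
Difference of each animal from the control mean (colour, log2, ending at -2 and 2) for the brightest probe of the 29 channel genes above background, with controls left and mutants right of the vertical line and families split by horizontal lines. The strongest colours are those of Scn4b, and Scn4b, Cacng4 and Cacng5 are red in control 4 and mutant 4, while most other rows are pale in all animals.

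Among the calcium channel beta subunits, Cacnb2 was the gene counted. Its product binds the pore inside the cell and raises its number at the membrane. On ILMN_1217815 the mutants ran from 6.77 over a median of 7.31 to 7.63, and the controls gave 7.99, 7.94, 7.70, 7.38 and 7.42. Controls 1, 2 and 3 lay above all mutants and controls 4 and 5 among them. The log2 fold change was -0.43 (standard error 0.17, or 0.741 times the control level, unadjusted p = 0.0246 and adjusted p = 0.996 in limma; exact permutation p = 0.0433), with -0.49 (standard error 0.23) in the 200s and -0.17 (standard error 0.19) in the 300s. The brightest Cacnb2 probe, ILMN_2565436, had the same sign and did not pass (log2 fold change -0.32, standard error 0.21, unadjusted limma p = 0.141, exact permutation p = 0.190). The dim probe ILMN_2553612 gave -0.01, and ILMN_2606862 was detected in 1 control only and is given no fold. Without the 4 animals rich in striatum and thalamus markers, a choice made after seeing the data, ILMN_1217815 gave -0.40 and was not counted, and it was not counted either without mutant 6, control 1 or control 2 alone (-0.36 to -0.39), with a block for the series of animal numbers (-0.39) or with a replicate block (-0.39).

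Cacnb2 has 2 annotated transcription starts in the RefSeq promoter table (GRCm38.p6), and its first exons set which form of the protein is made, so the 150 bases before each start, on the plus strand of chromosome 2, are shown to let the reader compare them. Capitals mark a GC box (GGGCGG, on either strand) in the first and a CRE-like site (TGACGT, on either strand) in the second.
Cacnb2 start 1, chr2:14604156-14604305: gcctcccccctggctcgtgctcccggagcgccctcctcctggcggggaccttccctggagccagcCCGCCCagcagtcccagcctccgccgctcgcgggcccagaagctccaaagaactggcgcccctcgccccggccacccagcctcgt
Cacnb2 start 2, chr2:14823942-14824091: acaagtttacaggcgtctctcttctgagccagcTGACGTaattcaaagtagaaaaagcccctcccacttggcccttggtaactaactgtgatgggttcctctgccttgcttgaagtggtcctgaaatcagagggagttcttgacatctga
The starts differ in base composition. Over 300 bases (250 before and 50 after the start) the G and C content was 71.7% at the first and 44.0% at the second, against a median of 52.7% over 32841 such windows. A GC box stands in 35.7% of all windows and a CRE-like site in 7.52%, and a TATA box (TATAAA) and a CArG box were looked for too and were in neither. These matches are descriptions of the letters, and which start each Cacnb2 probe reads is not given in the sources used here.

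Cacnb4, a beta subunit of cerebellum, thalamus and hippocampus, gave 0.19 on both of its bright probes (standard errors 0.29 and 0.27) and was opposite in the 2 series of animal numbers, with -0.13 within the 200s and 1.25 within the 300s on ILMN_3123491, where the only control of the 300s had the lowest signal of all animals (9.40). Cacnb1 gave -0.06 and -0.02 on its 2 probes. The median of the 3 Cacnb genes was -0.06, and it ran from -0.20 without control 4 to 0.11 without mutant 2.

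The pore genes of calcium channels showed no probe counted at an unadjusted p under 0.05 (0 of 29). On brightest probes above background, 4 Cacna1 genes were positive and 4 negative, from -0.17 to 0.24. The highest was Cacna1e, of the R-type channel that admits calcium into spines, at 0.24 (standard error 0.14, detected in 4 of 6 mutants and 2 of 5 controls). The lowest was Cacna1h, a T-type channel that opens at small depolarisations, with means of 10.45 ± 0.23 for the mutants (SD, n = 6) and 10.62 ± 0.13 for the controls (SD, n = 5) (log2 fold change -0.17, 95% interval -0.42 to 0.07).

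The pore genes of the presynaptic channels that trigger transmitter release lay between these. Cacna1a of the P/Q-type channel gave 0.11 (standard error 0.30) and Cacna1b of the N-type channel -0.07 (standard error 0.13). Among L-type genes, whose channels couple activity to transcription in the nucleus, Cacna1d gave 0.21 (standard error 0.33), while Cacna1c had 7 probes of which 1 was above background, in 1 mutant and 1 control only, with -0.03 (standard error 0.17). The T-type gene Cacna1g gave 0.08 (standard error 0.25). The retinal L-type gene Cacna1f was detected in 1 control (4.95) and 0 mutants on its brightest probe, ILMN_2657593. Its fitted log2 fold change of -0.17 (95% interval -0.45 to 0.11, exact permutation p = 0.273) did not pass. The bound counted as for Scn11a, at least 1.02-fold lower in mutants, therefore does not establish a decrease. The dimmer Cacna1f probe, detected in 1 mutant and 0 controls, had the opposite sign (0.08, standard error 0.09).

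Of the α2δ genes, Cacna2d1, a binding site of gabapentin, had means of 10.05 ± 0.38 for the mutants (SD, n = 6) and 9.98 ± 0.32 for the controls (SD, n = 5) (log2 fold change 0.07, 95% interval -0.36 to 0.51). Cacna2d3 had 10.06 ± 0.23 and 10.21 ± 0.36 over the same animals (log2 fold change -0.15, 95% interval -0.51 to 0.21). Neither passed, and the dimmer Cacna2d1 probes gave -0.14 and -0.08.

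The Cacng genes, most of which encode TARPs that carry AMPA receptors to synapses and slow their closing, had no probe counted (0 of 11). Of the 6 genes above background 5 were negative: Cacng2, whose product is stargazin, at -0.06 (standard error 0.17), Cacng3 at -0.14 (standard error 0.31), Cacng4 at -0.23 (standard error 0.43), Cacng7 at -0.16 (standard error 0.17) and Cacng8, the main TARP of hippocampus in the mouse, at -0.20 (standard error 0.19). The Cacng8 probe was detected in 2 of 6 mutants and 3 of 5 controls and that of Cacng7 in 3 of 6 and 3 of 5. The median of the 8 genes was -0.10, and without the 4 animals rich in striatum and thalamus markers it was 0.10.

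Cacng4 and Cacng5 varied with the same animals as Scn4b. Cacng4 gave 4.64, 4.68, 6.25, 7.03 and 5.38 in the controls and ran from 4.88 over a median of 5.31 to 6.24 in the mutants. Cacng5, a TARP of a second kind, gave 8.06, 7.09, 8.51, 9.31 and 7.16 in the controls and ran from 7.69 over 8.14 to 8.90 in the mutants on ILMN_2812240. Controls 3 and 4 and mutant 4 were the highest of their genotype for both genes, with mutant 2 next for Cacng5 and mutant 6 next for Cacng4. The log2 fold changes were -0.23 (95% interval -1.17 to 0.72) and 0.19 (95% interval -0.67 to 1.04), and a second Cacng5 probe gave 0.41 (standard error 0.42). The part of neighbouring tissue in these values was not tested.

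**Figure D4:**
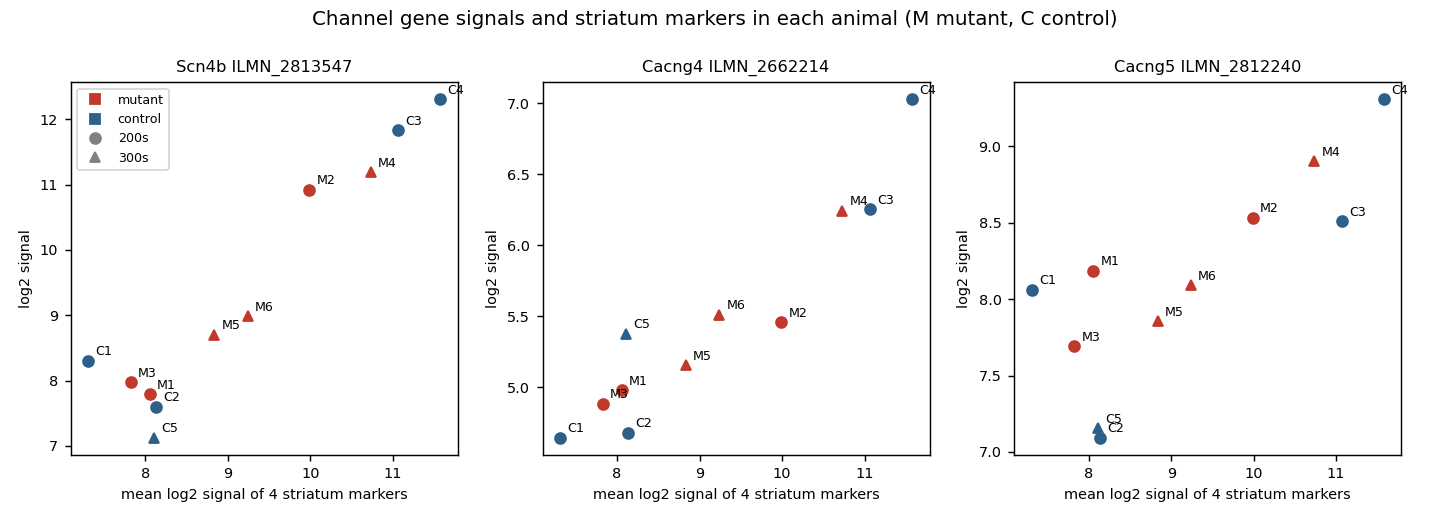
Log2 signal (vertical axes) of Scn4b, Cacng4 and Cacng5 against the mean log2 signal of 4 striatum markers (horizontal axes) in each of the 11 animals, mutants in red (M) and controls in blue (C). Mutants 2 and 4 and controls 3 and 4 have marker means from 9.99 to 11.58 and are the 4 highest animals for Scn4b ILMN_2813547, where they lie between 10.92 and 12.31.

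Proteins that bind or regulate these channels were read from 5 lists of 42 genes, of which 36 have a named probe and 33 were above background. At an unadjusted limma p under 0.05, 2 of 36 were lower and 0 higher, against 4.54% of all named genes in either direction, and their median log2 fold change was -0.04. Nedd4l, a ubiquitin ligase that removes sodium channels from the membrane, ran from 9.64 over a median of 9.71 to 9.95 in the mutants and gave 9.95, 10.09, 10.19, 10.19 and 10.04 in the controls. Every mutant lay below every control, the nearest pair by less than 0.01. Among all 45135 probes 0.332% had genotypes that did not overlap, and no other partner gene did. Its log2 fold change was -0.33 (standard error 0.08, unadjusted p = 0.00123 and adjusted p = 0.996 in limma; exact permutation p = 0.00433).

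Rem2, a small GTPase that inhibits calcium channels and is induced by neuronal activity, ran from 8.13 over a median of 8.82 to 9.70 in the mutants and gave 9.56, 9.52, 9.77, 9.95 and 9.43 in the controls. Only mutant 1 overlapped the controls. The log2 fold change was -0.83 (standard error 0.26, or 0.563 times the control level, unadjusted p = 0.00805 and adjusted p = 0.996 in limma; exact permutation p = 0.0173), with -0.85 within the 200s and -0.64 within the 300s.

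No other partner passed. Of the 10 sodium channel partners 7 were negative, Nedd4l among them, and of the 15 calcium channel partners 8, Rem2 among them. The 15 include Snap25 (-0.04), Gem (-0.11) and Cabp1 (0.12), which were not above background. For comparison, 6810 of all named genes above background were negative and 7642 positive. In the HCN list Nedd4, a ubiquitin ligase, gave 0.14 (standard error 0.07) and Kcne2, an accessory subunit, 1.27 (standard error 1.12). Kcne2 is also a choroid plexus gene, and 9 of 9 choroid plexus markers, itself included, were positive (median 0.74, with means from 5.64 to 9.81 in the mutants and from 5.75 to 9.57 in the controls). The part of choroid plexus in the Kcne2 value was not tested. All 3 genes of the sodium leak channel, which carries a steady inward current, were negative, with -0.14 for its pore gene Nalcn and -0.19 for Unc79. Of the AMPA receptor subunits and cornichons, which share TARPs as partners, Cnih3 gave 0.41 (standard error 0.20) and Gria4 0.37 (standard error 0.29).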

How the data were processed

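Hippocampal RNA of 6 mutants and 5 controls was profiled on Illumina mouse whole-genome BeadChips (12 arrays). The authors deposited, per probe and array, an intensity (mean bead brightness, linear, neither background-corrected nor scaled) and a detection p-value, whose method is not given in the sources used here. They also deposited processed log2 values of the same arrays, used as an alternative; the methods name limma on quantile-normalized log2 values after subtraction of background. Median intensities per array were 83.1 to 108, and 19193 to 21889 of 45135 probes were detected; the number of arrays limits the precision.

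Of 46089 lines, 954 without a probe name were left out. In R 4.3.3 with limma 3.58.1, normexp used the detection p-values to correct the background (offset 16), arrays were quantile normalized, and mutant minus control was fitted with lmFit and eBayes without covariates (prior degrees of freedom 2.12), and p-values were adjusted by Benjamini-Hochberg across the 45135 probes. Single probes were also given an exact two-sided permutation test over 462 splits. All 36 symbols matched the RefSeq gene table.

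Members, gene lists and tests were chosen with earlier results of these data known. Named were all member probes above background at an unadjusted p under 0.05, in each family the gene with the brightest probe and the largest difference in either direction, genes whose probes then differed in sign, and from the partner lists each member past that p and otherwise the 2 lowest in p; other members are given to account for the families. Alternatives were cyclic loess, the deposited log2 values, uncorrected background, filters on dim probes, an intensity trend with a robust prior, each array of mutant 6 alone, number series or replicate number as a block, and each animal left out. The steps were tested on simulated signals.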

Additional observations from a re-analysis of the deposited data

Results flagged for a closer look

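Within a genotype, 2 of 42 sets of values (21 named probes in 2 genotypes) had an animal far from the rest, and chance gives about 1 in 20. For Scn3b ILMN_1255633, mutant 1 had a log2 signal of 4.55, against 6.10 in the nearest other mutant. For Cacna2d3 ILMN_2762672, mutant 5 had the lowest log2 signal of the mutants, 9.62, against 10.05 in the next.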

How the results depend on the processing

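No channel probe reached an adjusted p under 0.05 in limma under any alternative (0 in each). The 6 channel probes at an unadjusted p under 0.05 became 3 (1 higher, 2 lower) with a block for the 200s and 300s series of animals, and 2 to 9 when 1 animal was left out, 2 without control 1 and 9 without mutant 3 or control 5; the other alternatives gave 4 to 6. With a replicate block the count was also 6, with Scn3b ILMN_1215136 (-0.53) in place of Cacnb2 ILMN_1217815. Deviations of animals with the same number correlated at 0.26, -0.05, -0.05, 0.56 and 0.54. Those numbered 1, 4 and 5 correlated best with their own number and those numbered 2 and 3 did not. These values cannot decide whether equal numbers mark pairs, since mutant 4 and control 4 also share high striatum and thalamus markers. The main fit did not pair animals. Without the 4 animals rich in striatum and thalamus markers, chosen after seeing the data, 4 probes were counted and the Cacng median was 0.10; Scn3b ILMN_1255633 (-0.70) and Cacnb2 ILMN_1217815 were not counted, and the Scn beta median was 0.04. With probes detected in at least 5 animals the Hcn median was 0.19. Without background correction or on the deposited log2 values the same 6 probes were counted with smaller differences, -0.38 to 0.25. The Scn beta median ran from -0.74 to -0.037 when 1 animal was left out. Of 126 values of the 6 probes, 98 kept their side of the threshold, 28 lost it and 0 changed sign, and of 312 of other named probes 10 passed it. At a detection p-value under 0.05, 72 probes were above background. Signals near 4 lie in the background, where differences are compressed; the cause of these shifts was not tested.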
